A study of Mus musculus with 2 samples.

Results

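The DNA replication machinery was followed here as 42 mouse genes chosen by name, from the proteins that mark and license replication origins to the enzymes that copy DNA and join the new strands. Of these, 35 were measured, as 35 of the 10149 genes that the arrays' probes could be named for, and 7 were not: Gins1, Gins2, Gins3, Pole2, Pcna, Rfc3 and Rfc5. Members were found by dropping the version of each gene probe's RefSeq accession and reading the symbol it belongs to. RNA came from EB5 mouse embryonic stem (ES) cells grown without feeder cells on gelatin, which had received Klf4 siRNA together with the plasmid pCAGEGFP-IP, were cultured for 24 h and were then selected in puromycin for 24 h (labelled siKlf4/EB5, called siKlf4 ES cells here, n = 2). They were set against Universal Mouse Reference RNA, a pool in equal parts of RNA from 11 mouse cell lines (embryo, embryo fibroblast, kidney, liver, lung macrophage, B and T lymphocyte, mammary gland, myoblast, skin and testis). Each of the 2 arrays carried ES cell RNA in Cy3 and the pool in Cy5, so a dye effect stays in every ratio. All ES cells had received Klf4 siRNA, and no ES cells without it were analysed here. The ratios therefore describe siKlf4 ES cells against a pool of other growing cell lines and hold no estimate of what the siRNA did. The labels number the samples 1 and 2 and do not say whether they were separate cultures, so the p-values measure only the spread between these arrays, which may be technical.

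DNA replication starts at origins bound by the origin recognition complex (ORC), on which Cdc6 and Cdt1 load the ring-shaped helicase Mcm2-7 before S phase. The kinase Cdc7, Mcm10, Cdc45 and the GINS complex then turn the loaded rings into moving forks, where primase and polymerase alpha start new strands, polymerases delta and epsilon extend them and Fen1 and Lig1 finish the lagging strand. Many of these genes are known targets of E2F transcription factors, and mouse ES cells are known for a short G1 phase with much of the cycle spent in S phase.

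The genes were chosen for a shared function, and their promoters were searched for short sequence motifs. The table of RefSeq promoters (GRCm38.p6, from 250 bases before to 50 bases after a gene's start) held 43 promoters for 34 of the 42 genes. Shown are the promoters of the genes with the highest ratios (Orc1 and Mcm10) and the lowest ratio (Pold3), and those of the helicase genes Mcm3 and Mcm6, which were added after their motifs had been seen. Each is written 5′ to 3′ on the gene's own strand. Capitals mark matches to an E2F motif (TTTCGCGC, TTTGGCGC, TTTCCCGC or TTTGCCGC, on either strand, overlaps allowed).
Orc1: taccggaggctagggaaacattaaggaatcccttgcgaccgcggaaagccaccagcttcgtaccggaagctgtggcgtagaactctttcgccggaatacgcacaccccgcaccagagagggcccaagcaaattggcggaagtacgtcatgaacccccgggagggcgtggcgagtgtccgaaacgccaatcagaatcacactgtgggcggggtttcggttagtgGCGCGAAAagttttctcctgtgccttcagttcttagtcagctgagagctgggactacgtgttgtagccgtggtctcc
Mcm10: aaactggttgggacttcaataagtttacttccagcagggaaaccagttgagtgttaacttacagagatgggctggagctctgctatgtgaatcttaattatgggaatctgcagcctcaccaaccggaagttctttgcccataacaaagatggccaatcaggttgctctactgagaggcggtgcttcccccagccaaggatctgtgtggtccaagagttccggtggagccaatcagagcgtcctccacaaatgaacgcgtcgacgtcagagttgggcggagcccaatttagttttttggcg
Mcm3: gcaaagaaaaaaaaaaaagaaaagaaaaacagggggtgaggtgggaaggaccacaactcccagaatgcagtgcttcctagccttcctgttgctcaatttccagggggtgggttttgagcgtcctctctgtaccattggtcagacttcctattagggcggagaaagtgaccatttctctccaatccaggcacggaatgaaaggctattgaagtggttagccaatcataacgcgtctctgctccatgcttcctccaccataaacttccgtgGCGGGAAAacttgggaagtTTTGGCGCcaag
Mcm6: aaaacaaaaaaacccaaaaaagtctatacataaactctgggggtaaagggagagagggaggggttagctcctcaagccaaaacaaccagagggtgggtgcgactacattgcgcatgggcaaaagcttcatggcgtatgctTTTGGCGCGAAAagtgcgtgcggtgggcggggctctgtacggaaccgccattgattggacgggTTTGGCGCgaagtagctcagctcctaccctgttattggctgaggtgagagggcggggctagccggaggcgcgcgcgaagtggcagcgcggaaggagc
Pold3: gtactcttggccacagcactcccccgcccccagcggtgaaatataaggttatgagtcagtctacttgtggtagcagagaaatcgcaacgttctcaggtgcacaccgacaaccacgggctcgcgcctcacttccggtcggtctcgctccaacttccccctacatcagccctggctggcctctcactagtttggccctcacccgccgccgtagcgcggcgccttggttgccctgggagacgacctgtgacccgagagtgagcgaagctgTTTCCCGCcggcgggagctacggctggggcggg

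The Orc1 promoter (chr4:108579204-108579503, plus strand) held 1 match, which began at -27 from the start site. That of Mcm6 (chr1:128359656-128359955, minus strand) held 3, beginning at -110, -106 and -47, of which those at -110 and -106 overlap. In Mcm3 (chr1:20820263-20820562, minus strand) 2 matches began at 19 and 38 bases after the start. Mcm10 (chr2:5012742-5013041, minus strand) had 0 matches, and Pold3 (chr7:100121453-100121752, minus strand) had 1, at 17 bases after the start. The Mcm10 window ends in all but the last letter of TTTGGCGC, so a match across that edge could not be counted. Over all replication genes, 15 of 43 promoters (34.9%) held the E2F motif, against 3.24% of the 10168 promoters of genes named on the arrays and 2.26% of all 32851 promoters in the table. Member promoters had a median G and C content of 61.3%, against 58.7% for promoters of named genes and 52.7% for all, and the part of base composition in the motif's share was not tested. The CCAAT box (CCAAT, either strand), the core of NF-Y sites, was in 53.5% of member promoters, against 37.8% and 37.4%. The CHR motif (TTTGAA, either strand), known from promoters of late cell cycle genes, was in 16.3%, against 14.0% and 17.9%. A match is a description of the letters in this window and not evidence of binding.

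Nearly all replication genes stood above the reference pool in the siKlf4 ES cells. Of the 35 measured, 34 were higher, 0 were lower and 1, Pold3, did not pass by limma at an adjusted p under 0.05, with Benjamini-Hochberg adjustment across the 21028 tested probes. The count of 0 lower held at an unadjusted p under 0.05 too, and was 1 (Pold3) under 2 other background corrections. Among all named genes, 34.8% were called higher and 34.2% lower at the same threshold. Of 161 negative control spots, 115 passed it as well and 0 reached 2-fold, so passing alone says little of a gene. At least 2-fold higher were 15 of the 35 genes, against 6.73% of named genes. Beyond every negative control spot were 30, against 15.9% of named genes. The largest absolute log2 ratio of those spots, as a mean of the 2 arrays, was 0.52. Ratios of smaller absolute size, up or down, are called within the range of negative control spots here. The members' median log2 ratio was 0.97, equal to 1.96-fold, with 0.91 on array 1 and 0.99 on array 2, while the median over all named genes was -0.01. Of the 35, 23 lay in the top 10% of the 10137 named genes tested. The 2-fold count fell to 8 without background correction and to 9 with median centring in place of loess, settings in which 3.35% and 5.18% of named genes passed. In both channels and on both arrays, 34 of the 35 probes were brighter than the limit set from negative control spots, and 0 were saturated.

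**Figure D1:**
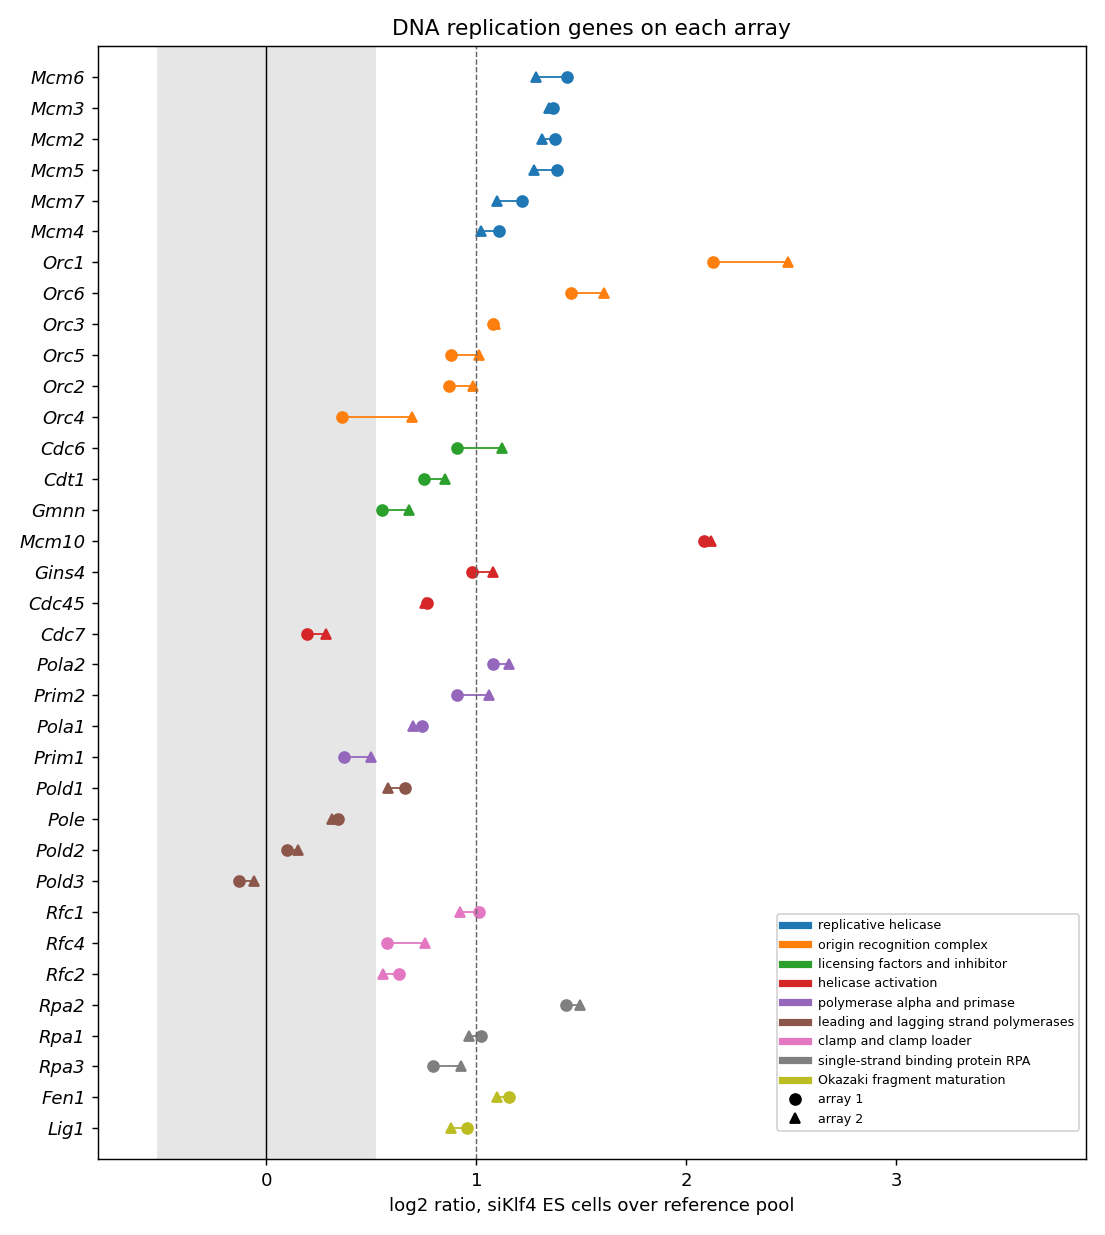
Log2 ratio of siKlf4 ES cells over the reference pool (horizontal axis) for the 35 measured replication genes, grouped by role in colour, with array 1 as circles and array 2 as triangles. The grey band reaches 0.52 on either side of 0, the largest absolute log2 ratio of any negative control spot as a mean of both arrays. The points are single-array ratios, and the dashed line marks 2-fold. Every gene except Pold3 lies right of 0 on both arrays, Orc1 and Mcm10 lie farthest right, and all Mcm2-7 genes lie right of the 2-fold line.

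The channels also differed in their cell type markers. The ES cell markers were higher in 9 of 9 measured cases, among them Pou5f1 (log2 ratio 2.86), Sox2 (5.69) and Zfp42 (5.01), and Nanog was not analysed here. Without background correction Pou5f1 stood at 1.76 and Sox2 at 4.45. The fibroblast markers were lower in 9 of 9. Of all named genes, 34.8% were called higher and 34.2% lower, which applies to each marker list given here. Esrrb (0.27) and Lum (-0.32) passed within the range of negative control spots. Summed ES marker signals reached 134021 and 157214 units (above local background) in the ES cells, against 8676 and 11328 in the pool, and of these markers only Esrrb was above the negative controls in neither channel. The probe for Dppa5a, saturated in the ES cells on both arrays, gave 65110.0 and 65116 of those ES units, so the ES sums are lower bounds. Summed fibroblast signals were 6562 and 7975 in the ES cells, against 76789 and 74087 in the pool, where Vim alone gave 59637 and 57306. Of 5 endoderm markers 1 was higher and 3 lower, with sums of 2494 and 3094 in the ES cells and 7938 and 8368 in the pool, and Afp was not above the negative controls in the ES cells. Of 7 neuroectoderm and mesoderm markers 1 was higher and 3 lower, with sums of 2499 and 3581 in the ES cells and 2379 and 3208 in the pool. How much of the replication ratios comes from this difference in cell types was not tested. Klf4 itself, the siRNA's target, had 1826 and 2542 units in the ES cells and 1518 and 1603 in the pool. Its log2 ratio of 0.51 ± 0.11 (SD, n = 2), or 0.31 with median centring, lay within the range of negative control spots. In bulk RNA, a larger share of cells in S phase and more RNA per cell cannot be told apart.

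The 6 subunits of the replicative helicase lay close together, with log2 ratios from 1.06 (Mcm4) to 1.36 (Mcm6). All 6 were at least 2-fold higher, against 6.73% of all named genes. Without background correction Mcm2 (0.95) and Mcm4 (0.95) fell short of 2-fold, and with median centring Mcm4 (0.89) and Mcm7 (0.97) did. Mcm6 had 1991 and 2138 units above background in the ES cells, against 819 and 836 in the pool. Mcm3 had 14484 and 17160 units in the ES cells and 5931 and 6013 in the pool. Their log2 ratios were 1.36 ± 0.10 for Mcm6 and 1.35 ± 0.016 for Mcm3 (SD, n = 2; limma, adjusted p = 8.88e-06 and 3.67e-06), so both stood at 2.56-fold. Mcm2, the subunit that also carries histones, had 1337 and 1396 units in the ES cells and 554 and 522 in the pool, at 1.34 ± 0.046. Mcm5 stood at 1.33 ± 0.080, from 1.39 on array 1 and 1.27 on array 2. Mcm4, whose tail the kinase Cdc7 phosphorylates, had 2881 and 3782 units in the ES cells and 1488 and 1745 in the pool. Mcm7 stood at 1.16 ± 0.085, from 1.22 and 1.10. For every subunit both ES signals lay above both pool signals, as they did for 62.9% of all named genes before dye normalisation. A second, dimmer Mcm7 probe gave 0.89, or 1.85-fold, so that gene reached 2-fold by its brighter probe only.

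In the origin recognition complex the ratios of the 6 subunits were widely spread, from 0.53 to 2.30. All 6 were called higher, against 34.8% of all named genes. Orc1, the subunit whose binding to the complex varies through the cell cycle, had 877 and 1233 units in the ES cells, against 173 and 173 in the pool. Its log2 ratio was 2.13 on array 1 and 2.48 on array 2, a mean of 2.30 ± 0.25 or 4.94-fold (SD, n = 2; limma, adjusted p = 1.06e-05), the highest among all replication genes measured. Of all named genes, 77 ranked higher. The pool signal was low, and without background correction Orc1 stood at 1.28. Orc6, the smallest and least tightly bound subunit, followed with 1442 and 2420 units in the ES cells and 569 and 754 in the pool (1.53 ± 0.11). Orc3 (1.08 and 1.09 on arrays 1 and 2), Orc5 (0.88 and 1.01) and Orc2 (0.87 and 0.99) lay between, at 2.12-, 1.93- and 1.90-fold. Without background correction Orc3 stood at 0.57 and Orc2 at 0.41. Orc4 was lowest, with 703 and 1036 units in the ES cells and 560 and 591 in the pool. Its log2 ratio of 0.53 ± 0.24 (limma, adjusted p = 0.00287) came from 0.36 and 0.69. The mean lay just above 0.52, the largest mean ratio of a negative control spot, and the array 1 value lay below it. With median centring Orc4 stood at 0.31.

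The genes that load the helicase or restrain loading had log2 ratios from 0.61 to 1.01, all called higher, against 34.8% of all named genes. Cdc6, the ATPase that recruits the helicase to ORC, had 291 and 357 units in the ES cells, against 86.9 and 88.9 in the pool, and a log2 ratio of 1.01 ± 0.15 (SD, n = 2; limma, adjusted p = 5.18e-05). The value was 0.34 without background correction. Cdt1, which brings Mcm2-7 to the origin, had 17824 and 22285 units in the ES cells and 11079 and 11019 in the pool, at 0.80 ± 0.070. Gmnn (geminin), the protein that holds Cdt1 inactive after origins have fired, had 7572 and 10415 units in the ES cells and 5505 and 5769 in the pool, at 0.61 ± 0.091. The loader and its inhibitor were thus both higher.

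**Figure D2:**
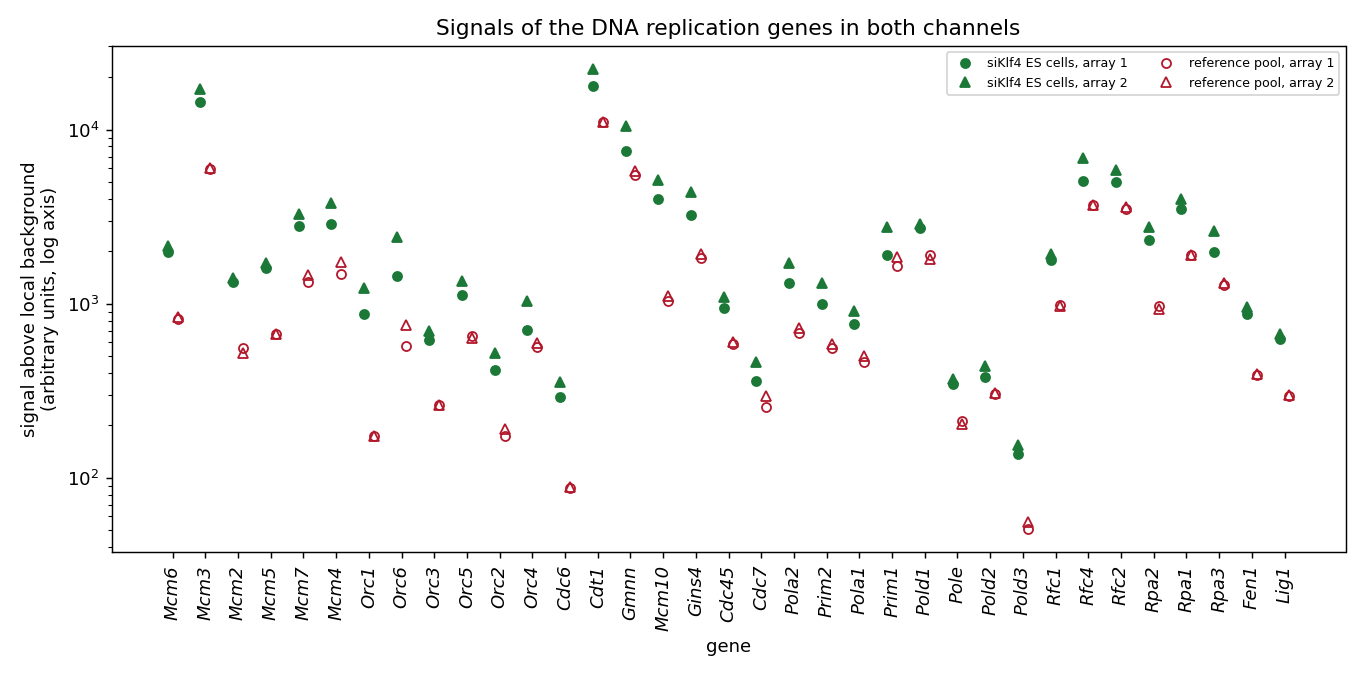
Signal above local background in arbitrary units (log axis) for each measured replication gene, with the siKlf4 ES cell channel in filled green and the reference pool in open red, array 1 as circles and array 2 as triangles. For all 35 genes both ES signals lie above both pool signals, as for 62.9% of all named genes. These signals are before dye normalisation.

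Factors that activate the helicase spanned the widest range of any role, from 0.24 to 2.10. Mcm10, needed to start unwinding, had 3969 and 5115 units in the ES cells, against 1036 and 1101 in the pool. Its log2 ratio of 2.10 ± 0.023 (2.08 and 2.12 on the arrays) equals 4.29-fold (limma, adjusted p = 1.20e-06) and was 1.82 without background correction, where it stood above Orc1. Gins4, the only GINS subunit measured, had 3231 and 4367 units in the ES cells and 1817 and 1919 in the pool, at 1.03 ± 0.071. Cdc45, which joins GINS and Mcm2-7 in the active helicase, had 943 and 1097 units in the ES cells and 585 and 602 in the pool, at 0.76 ± 0.0065. Both exceeded the range of the negative control spots. Cdc7, the catalytic subunit of the kinase that fires origins, had 360 and 465 units in the ES cells and 256 and 296 in the pool. That gave 0.24 ± 0.065 (limma, adjusted p = 0.00456), within the range of negative control spots, and 0.11 without background correction. Its activating partner Dbf4, which is not among the 42 genes, had 1212 and 1593 units in the ES cells and 413 and 490 in the pool, at 1.60 ± 0.0060 or 3.03-fold.

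Genes of the polymerase that starts strands had a median log2 ratio of 0.85, and those of the polymerases that extend them 0.23. In the polymerase alpha-primase complex, the regulatory subunit genes Pola2 (1.12 ± 0.052) and Prim2 (0.98 ± 0.11) were higher by more than the catalytic subunit genes Pola1 (0.72 ± 0.029) and Prim1 (0.43 ± 0.091). These orderings are of log2 ratios and were not tested. Pola2 had 1311 and 1703 units in the ES cells and 675 and 725 in the pool. Prim1 had 1902 and 2758 units in the ES cells and 1647 and 1843 in the pool. Of the 4 genes Prim1 alone lay within the range of negative control spots, and it was 0.24 with median centring. Pola1 had 769 and 903 units in the ES cells and 464 and 501 in the pool, and Prim2 had 991 and 1312 in the ES cells and 557 and 587 in the pool. Pola1 stood at 0.46 without background correction.

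Polymerases delta and epsilon, with 4 measured genes, had the lowest median of any role. Of the 4, 0 reached 2-fold, against 6.73% of all named genes, so this count is near the general share. Pold1, the catalytic subunit of polymerase delta, had 2706 and 2864 units in the ES cells and 1906 and 1810 in the pool, at 0.62 ± 0.057, and was the only gene of the 4 beyond the negative control spots. Pole, the catalytic subunit of polymerase epsilon, had 346 and 367 units in the ES cells and 211 and 204 in the pool, at 0.33 ± 0.018. The ratio lay within the range of negative control spots and was 0.14 without background correction. Pold2, an accessory subunit of polymerase delta, had 382 and 439 units in the ES cells and 303 and 305 in the pool. Its 0.13 ± 0.037 (limma, adjusted p = 0.0332) did not pass with median centring (0.022, adjusted p = 0.719) or with a normexp offset of 0 (0.14, adjusted p = 0.0680). Pold3, another accessory subunit, was not above the negative control limits in the ES cells on either array, with 137 and 154 units against limits of 155 and 178. In the pool it had 50.6 and 55.5 units and was above the limit on array 1 only. Its ratio of -0.10 (limma, adjusted p = 0.0840) is therefore one of signals near background. Its call went both ways: it passed as higher with median centring (0.13, adjusted p = 0.0460) and as lower with a normexp offset of 0 (-0.25, adjusted p = 0.0360) or the negative control spots as background (-0.11, adjusted p = 0.0354). Pold4, the smallest subunit of polymerase delta and not among the 42 genes, lay far on the other side, with 354 and 411 units in the ES cells, against 1653 and 1695 in the pool. Its log2 ratio of -2.19 ± 0.0020 (limma, adjusted p = 1.05e-06) was -1.39 without background correction.

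The remaining fork genes were all higher. Among the clamp loader genes, which place the PCNA ring on DNA, Rfc1 had 1.01 on array 1 and 0.92 on array 2 (0.97 ± 0.064), Rfc4 had 0.57 and 0.75 (0.66 ± 0.13) and Rfc2 had 0.63 and 0.56 (0.59 ± 0.053). All 3 were higher and none reached 2-fold, against 34.8% and 6.73% of all named genes. The clamp gene Pcna was not analysed here. The single-strand binding protein RPA has 3 subunits, all higher, against the same 34.8% of named genes. Rpa2, the subunit phosphorylated under replication stress, had 2324 and 2767 units in the ES cells, against 964 and 933 in the pool, at 1.46 ± 0.050 or 2.75-fold (limma, adjusted p = 3.66e-06). Rpa1, the large DNA-binding subunit, had 3519 and 3982 units in the ES cells and 1915 and 1905 in the pool, at 0.99 ± 0.043. Rpa3, the smallest subunit, had 0.79 on array 1 and 0.93 on array 2, at 0.86 ± 0.094. For the enzymes that finish Okazaki fragments, Fen1, the flap nuclease, had 872 and 956 units in the ES cells and 391 and 393 in the pool, at 1.13 ± 0.039. Lig1, the ligase, had 624 and 672 units in the ES cells and 296 and 299 in the pool, at 0.92 ± 0.052. Without background correction Fen1 stood at 0.70 and Lig1 at 0.50, and both still passed.

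The arrays differed from each other in opposite directions for the helicase and the complex that loads it. By their brightest probes, all 6 Mcm2-7 genes had the higher ratio on array 1, by 0.02 to 0.15 in log2. All 6 ORC genes had it on array 2, by 0.01 to 0.36. The dimmer Mcm7 probe had 0.888 on array 1 and 0.889 on array 2, so Mcm7 counts here by its brighter probe only. Among all named genes 46.1% were higher on array 1. The median absolute difference between arrays was 0.091 over the replication genes and 0.062 over all named genes. Orc1 (-0.36, array 1 minus array 2) and Orc4 (-0.33) differed most, followed by Cdc6 (-0.21), so that the spread of these 3 genes is the widest of the set. With 2 arrays of unknown relation, what the difference reflects was not tested.

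**Figure D3:**
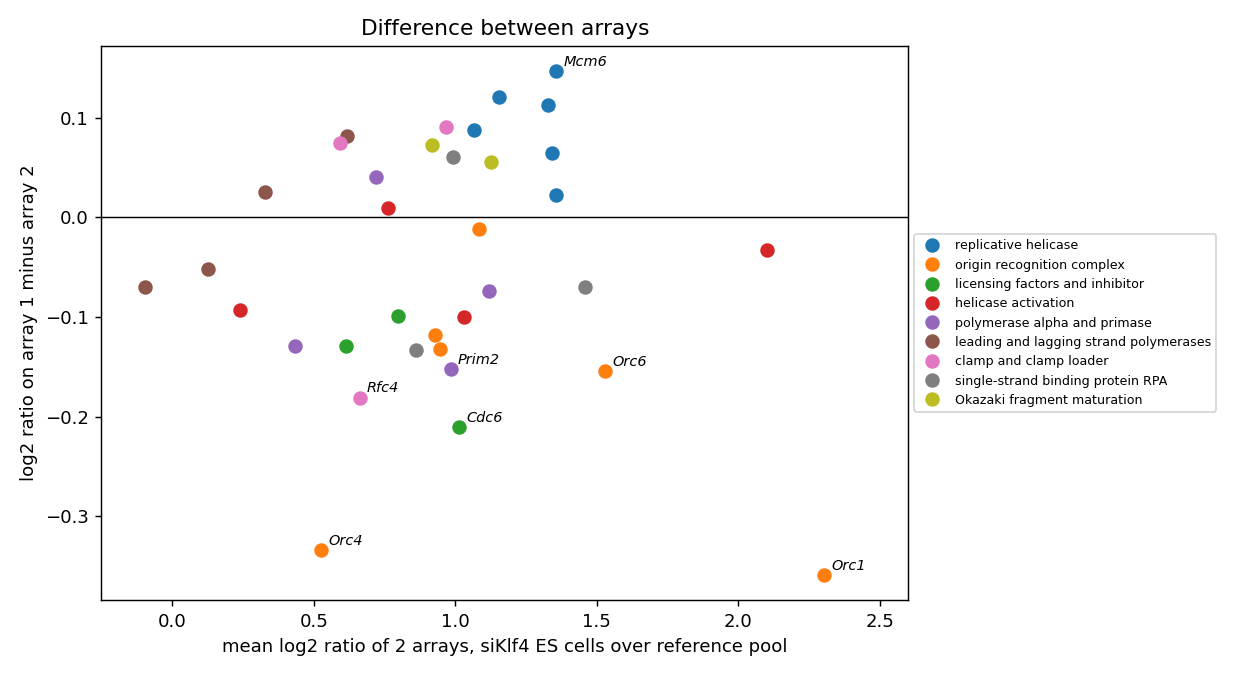
Log2 ratio on array 1 minus that on array 2 (vertical axis) against the mean log2 ratio of siKlf4 ES cells over the reference pool (horizontal axis) for the 35 measured replication genes, coloured by role. Each gene is shown by its brightest probe, so the dimmer Mcm7 probe is not shown. All helicase genes lie above 0 and all ORC genes below it, with Orc1 and Orc4 lowest at -0.36 and -0.33.

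The ratios of genes with and without the E2F motif overlapped. The 12 measured genes with a match had a median log2 ratio of 1.05, ranging from -0.10 (Pold3) to 2.30 (Orc1). The 17 measured genes with a promoter in the table and no match had a median of 0.95 and ranged from 0.13 (Pold2) to 2.10 (Mcm10). Mcm10 counts as without a match, although its window ends in all but the last letter of an E2F motif. Of the helicase genes in the table, Mcm3, Mcm5, Mcm6 and Mcm7 had a match and Mcm2 had none. For the CCAAT box, 18 genes with a match had a median of 1.07, and 11 without had 0.92, with Fen1 (1.13) the highest of those without. These are descriptions with no test.

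Other genes of the pathway, taken as 4 lists of 70 genes in all, are given for comparison. The test called 29 of 45 measured genes higher and 11 lower, against 34.8% and 34.2% of named genes, and 5 missed the threshold. The median log2 ratio was 0.42. A 2-fold change was reached by 9 upward and by 3 downward, against 6.73% and 7.47% of named genes. Limited to ratios beyond every negative control spot, 22 were higher and 6 lower, against 15.9% and 14.2%. Among other fork and origin genes, 15 of 22 were higher, 3 were lower and 4 missed the threshold. Tipin, which with Timeless steadies paused forks, had 3906 and 5595 units in the ES cells, against 1162 and 1210 in the pool, at 2.00 ± 0.15. Its partner Timeless, named after its value was seen, stood at 0.80, or 0.39 without background correction. The histone chaperone gene Asf1a (1.27) and Chtf18 (1.03), of an alternative clamp loader, were higher, and the topoisomerase gene Top2b was lower (-1.10 ± 0.031).

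In the list for Cdt1 turnover, 3 of 6 were higher, 2 lower and 1 did not pass, against 34.8% and 34.2% of named genes. Ddb1, the adaptor of the ubiquitin ligase that degrades Cdt1 on chromatin, stood at 1.31 ± 0.11 and Skp1, of the SCF ligase, at 0.83 ± 0.029. Cul1 (0.14), Dtl (-0.14) and Fzr1 (-0.14) passed within the range of negative control spots. The call of Cul1 was lost without background correction (adjusted p = 0.0953), with a normexp offset of 0 (adjusted p = 0.0757) and with median centring (adjusted p = 0.265), and that of Dtl without background correction (adjusted p = 0.131). Dtl was above the negative control limits in neither channel, and its sign turned, to 0.058, with median centring.

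Of the E2F and S-phase entry genes 8 of 13 were higher and 5 lower, against 34.8% and 34.2% of named genes, so the lower count is near the general share. The cyclin gene Ccne1, which drives entry into S phase, had 11700 and 14653 units in the ES cells, against 2693 and 3102 in the pool, at 2.14 ± 0.10 or 4.40-fold. Tfdp2 (1.09), a dimer partner of E2F, E2f5 (1.01), the phosphatase gene Cdc25a (0.97) and the cyclin gene Ccna2 (0.97) were higher too. Without background correction Tfdp2 stood at 0.38 and Cdc25a at 0.30. The 3 pocket protein genes, which hold E2F in check, were all lower: Rbl1 at -1.05 ± 0.15, Rbl2 at -0.86 ± 0.017 and Rb1 at -0.79 ± 0.097, the last pair singled out after their values were seen. Without background correction they stood at -0.67, -0.34 and -0.39. E2f1, likewise singled out, was lower at -0.31, within the range of negative control spots. E2f7 (-0.13) was lower within that range too, while E2f4 (0.93) and E2f6 (0.68) were higher, all named after their values were seen. In the supply of deoxynucleotides, Rrm2 (0.73), of ribonucleotide reductase, and Dut (0.65), which removes dUTP, were higher. Tk1, thymidine kinase of the salvage route, was lower, with 1580 and 1904 units in the ES cells and 2860 and 2917 in the pool (-0.70 ± 0.0012; limma, adjusted p = 3.37e-05).

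**Figure D4:**
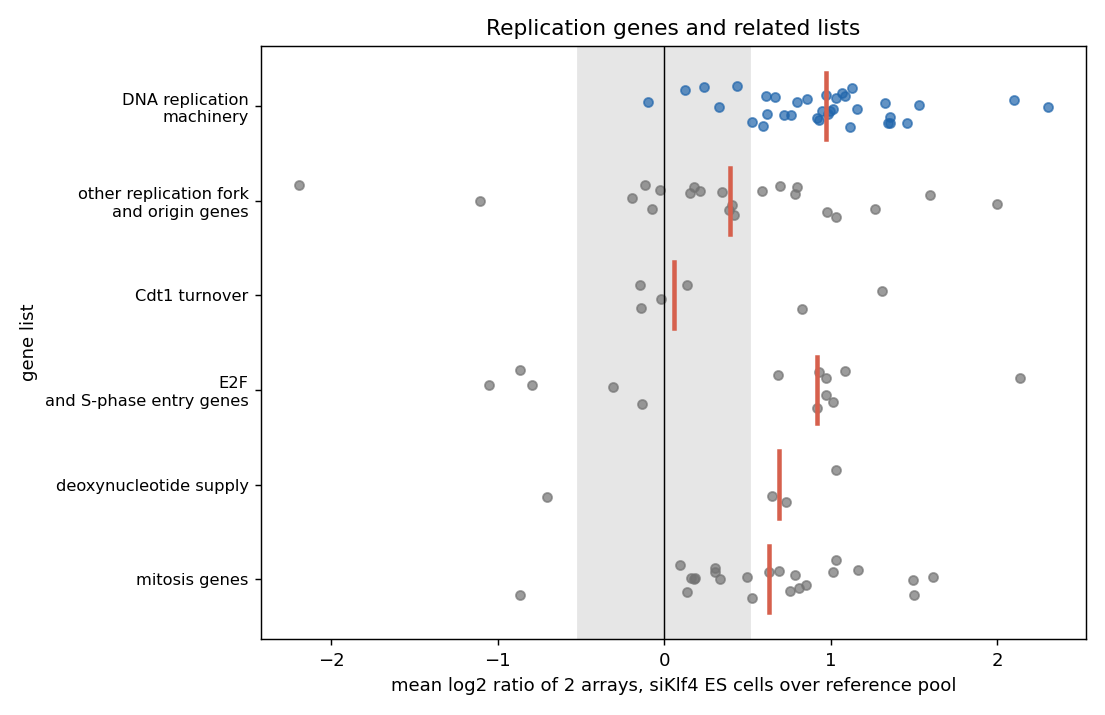
Mean log2 ratio of siKlf4 ES cells over the reference pool for each measured gene of the replication machinery (top, blue) and of 5 related lists (grey). List medians are red bars, and the grey band reaches the largest absolute mean ratio of negative control spots on either side of 0. The replication machinery has a median of 0.97, with only Pold3 left of 0 and no gene left of the band. Each list below it has genes on both sides of 0, and the list for Cdt1 turnover has none left of the band either.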

How the data were processed

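RNA was measured on 2 two-colour arrays of 21052 gene probes. Per the file headers, the authors' intensity values (mean spot and local background signals, and processed signals after background subtraction and LOWESS dye normalization) come from Agilent Feature Extraction A.7.5.1, whose deposited log10 ratio is red over green processed signal. The deposited series table holds log10 values of unstated making. Its values equal an array's log10 ratio subtracted from the arrays' average log10 red signal, within 2e-04 for 99.6% of probes.

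Mean signals were corrected by normexp on the local background median (offset 50) and normalised by loess within arrays in limma 3.58.1 (R 4.3.3), controls at weight 0. Outlier-flagged spots (24 probes) were left out. Ratios are log2 of ES cells over reference, tested against 0 with lmFit and eBayes, Benjamini-Hochberg adjusted over 21028 probes at 0.05. A probe was above the negative controls if it passed the 95th percentile of those 162 spots, which was 155 and 178 units for ES cells and 40.9 and 58.4 for the pool. Of 161 such spots, 115 passed the same test and 0 reached 2-fold, so ratios in their range can pass without any gene's signal. Having 2 arrays limits the precision.

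Probes were named by RefSeq accession (10422 probes), using the brightest probe of a gene. All measured members are named, and up to 6 genes past the threshold per related list, by size of ratio; some genes that this would name are not reported here. The members and lists were chosen with earlier results of these data known. Alternatives changed the background correction, normalisation, probe filter, probe choice, deposited values and arrays used. The fit was run on simulated data, with the spread that limma fits to these arrays and unchanged probes given no true difference. That run cannot show how the fit treats real spots without a gene's signal.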

Additional observations from a re-analysis of the deposited data

How the results depend on the processing

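Under the other settings that can be tested, 33 or 34 members were called higher. The count called lower was 1, Pold3, with a normexp offset of 0 (-0.25) and with the negative control spots as background (-0.11), and 0 otherwise. Median centring turned Pold3 to 0.13, which passed as higher (adjusted p = 0.0460) while Pold2 lost its call, so its 34 are not the same genes. It also turned Dtl to 0.058. Neither Pold3 nor Dtl was above the negative control limits in the ES channel. Members at least 2-fold higher numbered 8 without background correction and 9 with median centring, and 14 to 18 under the other alternatives. The members' median log2 ratio was 0.69 without background correction and 0.77 with median centring, and 0.97 to 1.00 otherwise. On single arrays, which allow no test, it was 0.91 to 0.99 and the 2-fold count 15 to 17. A limit set by the most extreme negative control spot, added after seeing the data, removes small ratios. Under it 30 members and 13 of 23 mitosis genes were higher, against 15.9% of named genes. Of the other replication genes 6 were lower, against 14.2% of named genes. Signal over background limits several members: without background correction Orc1 stood at 1.28, Cdc6 at 0.34, Orc2 at 0.41, Orc3 at 0.57, Fen1 at 0.70, Lig1 at 0.50, Pola1 at 0.46, Pole at 0.14, Cdc7 at 0.11 and Pold2 at 0.062. Aquantile leaves ratios as they are. The calls could not be remade on 1 array. No paired analysis was possible because both samples belong to 1 group.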

Other observations

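Mitosis genes, the set of cell cycle genes nearest to replication, also stood mostly above the pool in the siKlf4 ES cells. Of 23 measured, 21 were higher, 1 lower and 1 did not pass, against 34.8% of named genes called higher. The median log2 ratio was 0.97 for the replication genes and 0.63 for the mitosis genes. At least 2-fold higher were 6 of 23, against 6.73% of named genes, and 13 exceeded every negative control spot, against 15.9%. The checkpoint kinase gene Ttk had 860 and 1017 units in the ES cells, against 259 and 285 in the pool, at 1.61 ± 0.024 (SD, n = 2), or 0.94 without background correction. The mitotic cyclin gene Ccnb1 (1.50), the cytokinesis regulator Ect2 (1.49, or 0.93 without background correction) and the checkpoint genes Bub1b (1.16) and Bub1 (1.03) followed. Racgap1, a partner of Ect2 in cytokinesis singled out after its value was seen, was lower at -0.86 ± 0.051. The difference between the lists was not tested.

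Promoter motifs were counted in the same way. Replication gene promoters held the E2F motif in 15 of 43 cases (34.9%) and the CHR motif in 7 (16.3%), and mitosis gene promoters held the E2F motif in 2 of 28 (7.14%) and the CHR motif in 20 (71.4%). Over all promoters in the table the shares were 17.9% for CHR and 2.26% for E2F. The CCAAT box was in 53.5% of replication gene promoters and 85.7% of mitosis gene promoters. These are counts of letters in 300 bases, with no test, and say nothing of which factor bound.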
